A study of Mus musculus with 17 samples.

Results

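Genes that set extracellular adenosine, or sense it, were followed in distant mouse tumors after cryoablation of a tumor on the opposite side. The 7 genes were chosen by name from the 21931 of the deposited table, and all 7 were found there. Nt5e and Entpd1 act on the route that makes adenosine, and Adora1, Adora2a and Adora2b are its receptors. Ada breaks it down and Slc29a1 carries it across the cell membrane. MC38 cells, which the labels call mouse colon cancer cells, were placed subcutaneously in both flanks of C57BL/6J mice aged 6-8 weeks, with the genotype given as WT. In the cryoablation group a probe froze the tumor of a single flank 7 days into growth. The tumor of the opposite flank, which was not frozen by the probe, was taken for bulk RNA-seq 5 days after the freezing. Control tumors carry the same Day 5 label. By the labels there were 9 control and 8 cryoablation tumors. The text of the study gives these sizes the other way round, and the labels were followed. The freezing time differs between the labels and the methods and was not settled here. What the control animals received in place of freezing is not given in the sources used here.

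ATP that leaves stressed or dying cells is cut to AMP at the cell surface by CD39, the product of Entpd1, and AMP is cut to adenosine by CD73, the product of Nt5e. Adenosine then binds G protein-coupled receptors, of which those encoded by Adora2a and Adora2b raise cAMP and dampen T cells and myeloid cells, whereas that of Adora1 lowers cAMP. Adenosine deaminase, from Ada, turns adenosine into inosine, and the equilibrative nucleoside transporter ENT1, from Slc29a1, carries adenosine across the cell membrane. In tumors this pathway is known for restraining immune cells, and for this reason its enzymes and receptors are drug targets.

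The stretches before the gene starts of Nt5e, Entpd1, Ada and Slc29a1 are shown. Entpd1, Ada and Slc29a1 are the members whose levels were correlated in control tumors, as described below. Nt5e passed with no member there, and was lowest in the cryoablation tumors with the highest Ada and Slc29a1. The sequences are from RefSeq, build GRCm38.p6, which held a window at the gene start for 6 of the 7 members, Adora2a being the other. Each run gives the 250 bases upstream of the start, 5′ to 3′ on the strand of the gene. Capitals mark matches on either strand to ACGTG, the core of the hypoxia response element, to TGACG, the core of the cAMP response element, or to GGGCGG, the GC box. Matches may overlap.
Nt5e chr9:88327359-88327608, plus strand: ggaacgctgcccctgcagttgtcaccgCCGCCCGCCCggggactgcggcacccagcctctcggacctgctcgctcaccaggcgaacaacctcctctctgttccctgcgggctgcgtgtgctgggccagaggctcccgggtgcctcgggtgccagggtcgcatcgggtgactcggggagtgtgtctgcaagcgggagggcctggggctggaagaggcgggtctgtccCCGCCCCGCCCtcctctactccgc
Entpd1 chr19:40612116-40612365, plus strand: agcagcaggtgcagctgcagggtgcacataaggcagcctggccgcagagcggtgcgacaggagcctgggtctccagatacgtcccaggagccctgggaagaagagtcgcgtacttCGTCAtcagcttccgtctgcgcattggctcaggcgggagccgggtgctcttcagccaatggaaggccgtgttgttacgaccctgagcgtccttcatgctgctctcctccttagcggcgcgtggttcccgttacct
Ada chr2:163750240-163750489, minus strand: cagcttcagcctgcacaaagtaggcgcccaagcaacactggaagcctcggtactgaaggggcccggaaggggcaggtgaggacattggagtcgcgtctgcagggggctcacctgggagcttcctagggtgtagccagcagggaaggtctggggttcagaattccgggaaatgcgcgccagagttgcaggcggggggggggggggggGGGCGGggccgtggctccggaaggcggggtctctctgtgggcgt
Slc29a1 chr17:45599619-45599868, minus strand: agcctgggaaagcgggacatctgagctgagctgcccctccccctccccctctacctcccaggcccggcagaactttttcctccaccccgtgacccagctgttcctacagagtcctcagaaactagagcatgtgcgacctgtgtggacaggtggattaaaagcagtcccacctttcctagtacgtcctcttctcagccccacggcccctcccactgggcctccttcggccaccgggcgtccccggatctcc
The GC box matched 4 times in the Nt5e window, 6 times in that of Adora2b, 3 times in that of Adora1 and 1 time in that of Ada. It matched 0 times in the windows of Entpd1 and Slc29a1. TGACG matched 1 time, in the Entpd1 window, and ACGTG 1 time, in the Adora1 window, and neither was found in the other windows. Of all 32851 windows of 250 bases, which were not limited to those at a gene start, 32.7% held the GC box, 17.8% TGACG and 16.6% ACGTG. Ada and Slc29a1, whose levels ran in parallel as described below, shared none of the 3 motifs in these windows.

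Total counts ranged from 14154687 to 17898672 in the control group and from 13524899 to 16847050 in the cryoablation group. Levels are given as CPM, counts scaled to a common library size, with TMM normalization, and 3 counts corresponded to 0.168 to 0.222 CPM of the totals. Cryoablation replicates 2, 4 and 5 stood apart from the other tumors. On the first principal component of the 500 most variable genes, which held 46.2% of the variance, they lay between -39.4 and -28.4 and the other 14 tumors between -8.32 and 20.6. Ribosomal protein genes took 13.01 to 15.1% of the counts in these 3 tumors and 4.92 to 10.7% in the others. The differences of the 6 members tested are therefore also given without these 3 tumors. Of the markers of colon epithelium, Cdx2 had 0 counts in all 17 tumors, and the 7 markers together summed to 15.95 to 65.8 CPM in control and 10.0 to 123.0 CPM in cryoablation tumors. The tumors are bulk tissue, so that fewer cells of a type and less RNA per cell cannot be told apart for any gene below.

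No member differed between the groups beyond the spread between tumors. Of the 6 members that passed the filter on low counts, 0 were called at an adjusted p under 0.05 by edgeR's quasi-likelihood test, where 0% of the 13005 genes tested were called. At an unadjusted p under 0.05, 0 of 6 members passed, beside 4.91% of all genes tested. That share, of 639 genes, depended on single tumors. It came to 252 genes without cryoablation replicate 2 and to 1388 without cryoablation replicate 3. The threshold of the study was taken here as an unadjusted p under 0.05 and a log2 fold change beyond 1 in either direction. Its methods mention Benjamini-Hochberg adjustment, and its results do not say which p was used. At this threshold 0 of 6 members passed, beside 0.492% of all genes tested. Nt5e, Entpd1, Adora2a and Adora2b had estimates below 0 and Ada and Slc29a1 above 0. DESeq2 and limma voom also called 0 members at either threshold.

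**Figure D1:**
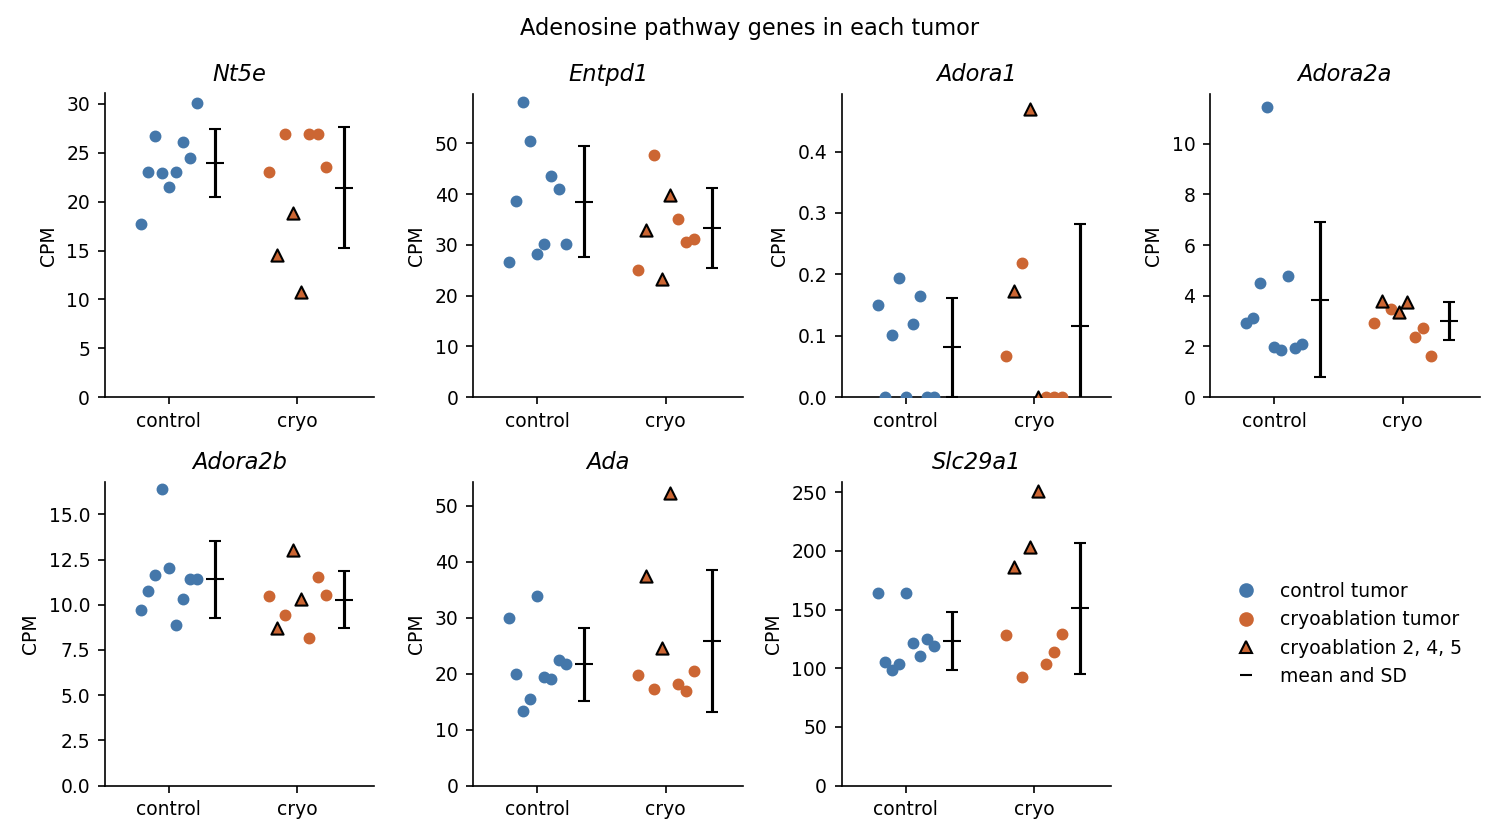
Level of each member in CPM (linear axes from 0) in the 9 control and 8 cryoablation tumors, 1 point per tumor, with the mean and SD beside the points and cryoablation replicates 2, 4 and 5 drawn as triangles. The groups overlap for every member, and the triangles lie below the other cryoablation tumors for Nt5e and above them for Ada and Slc29a1.

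Among the enzymes on the route to adenosine, Nt5e was at 17.7 (lowest), 23.1 (median) and 30.1 CPM (highest) in control tumors. In cryoablation tumors it was at 10.7, 23.3 and 27.0 CPM. The medians were close together, with 4 cryoablation tumors above and 4 below the control median, while the low end reached further down in the cryoablation group. The log2 fold change of cryoablation over control was -0.16 (SE 0.16, 95% interval -0.50 to 0.19), with an adjusted p of 0.771 by edgeR and a p of 0.275 by the two-sided exact permutation test of mean log2 CPM. The low end was made up of the 3 tumors that stood apart, at 10.7 to 18.8 CPM beside 23.0 to 27.0 CPM in the other 5 cryoablation tumors. Without them the estimate turned to 0.082 (SE 0.11).

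Entpd1, the first enzyme of the route, was at 26.7, 38.7 and 58.1 CPM (lowest, median, highest) in control tumors and at 23.3, 32.1 and 47.8 CPM in cryoablation tumors. In 6 of 8 cases the cryoablation value was under the median of the controls, within a control range that spanned 2.17-fold. The log2 fold change was -0.21 (SE 0.17, 95% interval -0.57 to 0.15), with an adjusted p of 0.739 by edgeR and an exact permutation p of 0.284. The tumors that stood apart did not separate from the others here, at 23.3 to 39.8 CPM beside 25.2 to 47.8 CPM. The estimate without them was -0.19. Leaving out 1 tumor at a time gave -0.31 to -0.13, and the other alternatives gave -0.31 to -0.11.

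Among the receptors, Adora2b had 101 to 253 counts per tumor. It was at 8.91, 11.4 and 16.4 CPM in control tumors and at 8.14, 10.4 and 13.04 CPM in cryoablation tumors. The highest value belonged to control replicate 4, and the median of the controls exceeded 6 of 8 cryoablation values. The log2 fold change was -0.15 (SE 0.13, 95% interval -0.41 to 0.12), with an adjusted p of 0.746 by edgeR and an exact permutation p of 0.231. Its interval was the narrowest of the 6 members and held no decrease beyond 0.41 on the log2 scale. Without the 3 tumors that stood apart the estimate was -0.19, and without control replicate 4 it was -0.074 (SE 0.11).

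Adora2a was sparser, with 26 to 177 counts per tumor. It was at 1.85, 2.91 and 11.5 CPM in control tumors and at 1.61, 3.14 and 3.79 CPM in cryoablation tumors. Control replicate 4 stood far above the other control tumors, of which the next was at 4.77 CPM, and 5 of 8 cryoablation values exceeded the median of the controls. The log2 fold change was -0.36 (SE 0.34, 95% interval -1.08 to 0.36), with an adjusted p of 0.762 by edgeR and an exact permutation p of 0.724. This estimate rested on control replicate 4, and without that tumor it was 0.034 (SE 0.24). The 3 tumors that stood apart were at 3.36 to 3.79 CPM and the other 5 cryoablation tumors at 1.61 to 3.49 CPM, and without those 3 the estimate was -0.56 (SE 0.42). The interval over all tumors was the widest of the 6 members.

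Adora1 was at the limit of detection and did not pass the filter. Control tumors had 0 to 3 counts each, 12 in all, and cryoablation tumors 0 to 6 counts each, 13 in all. It had at least 1 count in 5 of 9 control and 4 of 8 cryoablation tumors, with the highest value, 6 counts or 0.469 CPM, in cryoablation replicate 4. A difference was not detectable at this depth, with an exact permutation p of 0.817. By the listed positions Adora1 overlaps Mybph on the opposite strand, which had 0 to 21 counts, and whether reads were counted by strand is not given in the sources used here.

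Of the genes that break down or carry adenosine, Ada was at 13.4, 19.9 and 33.8 CPM in control tumors. In cryoablation tumors it was at 16.995, 20.1 and 52.3 CPM. The medians lay side by side, with 4 cryoablation tumors above and 4 below the control median, and the 2 highest values, 37.5 and 52.3 CPM, were in the cryoablation group. The log2 fold change was 0.25 (SE 0.24, 95% interval -0.25 to 0.75), with an adjusted p of 0.762 by edgeR and an exact permutation p of 0.462. The 3 tumors that stood apart were at 24.5 to 52.3 CPM and the other 5 cryoablation tumors at 16.995 to 20.5 CPM. Without those 3 tumors the sign turned, to -0.23 (SE 0.19).

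Slc29a1 had the highest CPM of the members, with 1598 to 2605 counts per tumor. It was at 98.6, 119.0 and 164.3 CPM in control tumors and at 92.2, 128.7 and 250.8 CPM in cryoablation tumors. The 3 highest values of all 17 tumors were those of cryoablation replicates 2, 4 and 5, at 186.3, 203.5 and 250.8 CPM, beside 92.2 to 129.2 CPM in the other 5 cryoablation tumors. The log2 fold change was 0.29 (SE 0.19, 95% interval -0.10 to 0.68), with an adjusted p of 0.728 by edgeR and an exact permutation p of 0.256. Without the 3 tumors it was -0.13 (SE 0.14). Across members, then, the estimates of Nt5e, Ada and Slc29a1 took their sign from these 3 tumors and that of Adora2a from control replicate 4, whereas Entpd1 and Adora2b kept their sign in all 27 alternatives run.

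**Figure D2:**
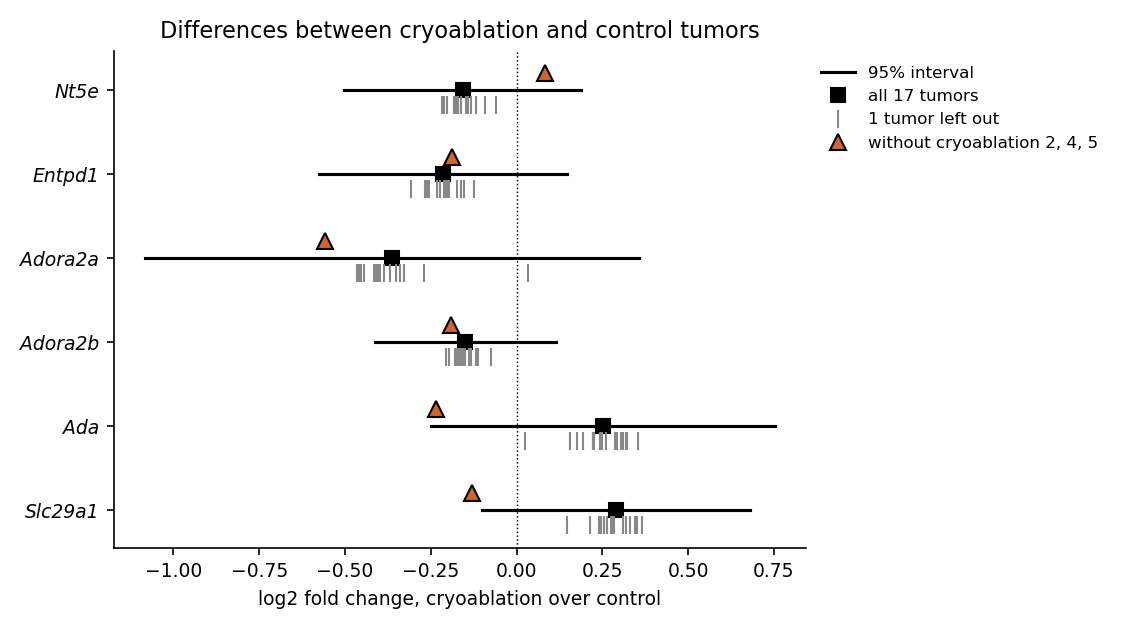
Log2 fold change of cryoablation over control for the 6 members tested (squares, with 95% intervals from edgeR), with estimates after leaving out each tumor in turn (grey ticks) and after leaving out cryoablation replicates 2, 4 and 5 (triangles). All 6 intervals span 0, and the triangles of Nt5e, Ada and Slc29a1 lie on the other side of 0 from their squares.

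The share of counts on ribosomal protein genes moved with 3 of the members inside the cryoablation group. The tumors with a share of at least 13.01% had the lowest Nt5e and the highest Ada and Slc29a1 of that group, without overlap with the other 5. Entpd1 and Adora2b overlapped between these tumors. The ratio of Nt5e to Ada, an enzyme that makes adenosine over an enzyme that breaks it down, was between -0.76 and 0.99 on the log2 scale in control tumors (median 0.25). In cryoablation tumors it was between -2.27 and 0.66 (median 0.21). With the ribosomal protein share as a term in the fit, the log2 fold changes were 0.0062 for Nt5e, -0.13 for Ada and -0.038 for Slc29a1. The part of this share in the members' levels was not tested.

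Cell type markers were compared between the groups because immune and stromal cells carry several members. Summed T cell markers ranged from 26.7 to 136.2 CPM in control and from 24.0 to 98.1 CPM in cryoablation tumors, and their mean log2 CPM differed by -0.11 (exact permutation p = 0.740). Macrophage markers summed to 967 to 2700 CPM in control and 741 to 3444 CPM in cryoablation tumors, with a difference of -0.11 (exact permutation p = 0.608). Fibroblast markers differed by -0.19 (exact permutation p = 0.170) and endothelial markers by -0.16 (exact permutation p = 0.418). Larger differences, all above 0 on the log2 scale, were those of erythroid markers (1.42, exact permutation p = 0.00592), adipocyte markers (0.75, exact permutation p = 0.244), colon epithelium markers (0.70, exact permutation p = 0.417), neutrophil markers (0.63, exact permutation p = 0.255), skin epithelium markers (0.44, exact permutation p = 0.322) and skeletal muscle markers (0.37, exact permutation p = 0.655). B cell markers, of which 1 gene passed the filter, differed by -0.25 (exact permutation p = 0.683). Adjusted over the 11 lists, the p of the erythroid list was 0.0652 by exact permutation and those of the others were at least 0.657. Without cryoablation replicates 2, 4 and 5 the difference was 0.95 for erythroid markers (exact permutation, unadjusted p = 0.0619), 0.20 for adipocyte, 0.21 for neutrophil, -0.38 for colon epithelium, -0.24 for skin epithelium, -0.35 for T cell, -0.37 for macrophage, -0.05 for fibroblast, -0.05 for endothelial, 0.86 for skeletal muscle and -1.05 for B cell markers, with unadjusted p of at least 0.0989 for these lists by exact permutation. Their part in the members' levels was not tested.

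Per kilobase of the listed gene length, the members stood in the same order in both groups. Slc29a1 was highest, at 30.8 ± 6.14 CPM per kilobase in control (SD, n = 9) and 37.66 ± 13.996 in cryoablation tumors (SD, n = 8). It was followed by Ada (10.8 ± 3.26 and 12.9 ± 6.31), Entpd1 (6.91 ± 1.95 and 5.96 ± 1.41), Adora2b (6.18 ± 1.15 and 5.57 ± 0.847), Nt5e (2.78 ± 0.408 and 2.49 ± 0.719) and Adora2a (1.26 ± 0.998 and 0.981 ± 0.246). By this measure the transporter lay above every enzyme and receptor, and Adora2b above Adora2a. Adora1, with too few counts, was not ranked.

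Neighbours in this order were compared within each tumor by a two-sided exact sign-flip permutation test, adjusted over the 10 neighbour pairs of both groups. Slc29a1 lay above Ada in 9 of 9 control and 8 of 8 cryoablation tumors, by 1.54 and 1.58 on the log2 scale (adjusted p = 0.0112 in each group). Entpd1 and Adora2b were not separated, with Entpd1 higher in 6 of 9 control tumors (exact permutation, adjusted p = 0.317) and in 4 of 8 cryoablation tumors (exact permutation, adjusted p = 0.695). Ada lay above Entpd1 in 8 of 8 cryoablation tumors (exact permutation, adjusted p = 0.0112) and in 7 of 9 control tumors, where the difference missed the threshold (exact permutation, adjusted p = 0.0586). Nt5e lay above Adora2a in 8 of 9 control and 8 of 8 cryoablation tumors (exact permutation, adjusted p = 0.0112 in each group).

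The place of Nt5e depended on the gene length. With the listed length of 8602 bases, Adora2b lay above Nt5e in all tumors, by 1.14 in control and 1.21 in cryoablation tumors on the log2 scale (exact permutation, adjusted p = 0.0112 in each group). With the longest GENCODE M21 transcript, of 3995 bases, the difference was 0.04 in control and 0.10 in cryoablation tumors (exact permutation, adjusted p = 0.719 in each group). With that length Entpd1 and Adora2b separated in control tumors instead, by 0.53 (exact permutation, adjusted p = 0.0130), and missed the threshold in cryoablation tumors (exact permutation, adjusted p = 0.0558). Slc29a1 at the top, Ada next and Adora2a at the bottom were the same with both lengths. With the GENCODE length Ada lay above Entpd1 in 7 of 9 control tumors, where it missed the threshold (exact permutation, adjusted p = 0.127). In cryoablation tumors it did so in 7 of 8 (exact permutation, adjusted p = 0.0260).

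**Figure D3:**
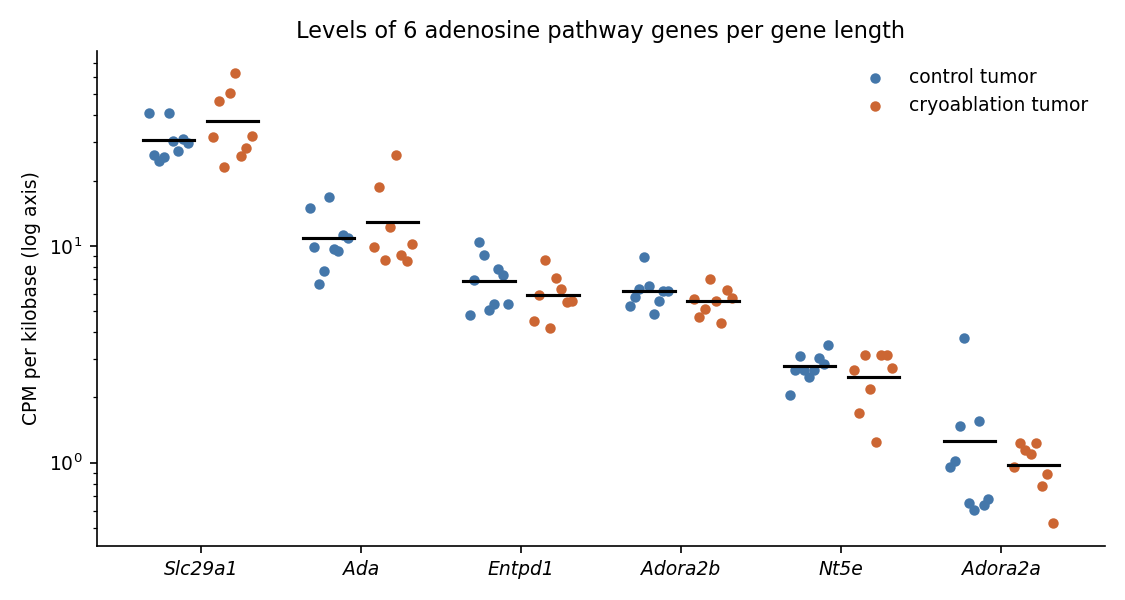
Level of 6 members in CPM per kilobase of listed gene length (log axis), 1 point per tumor, with horizontal bars at the mean of each group. Slc29a1 is highest and Adora2a lowest in both groups, at means of 30.8 and 1.26 CPM per kilobase in control tumors.

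Some members also varied together from tumor to tumor. Among the 9 control tumors, Ada and Slc29a1 ran in parallel, with Spearman's rho of 0.90 (exact permutation, adjusted p = 0.0304) and Pearson's r of 0.95 (exact permutation, adjusted p = 0.00240). Entpd1 ran against both, with rho of -0.87 and r of -0.86 for Ada (exact permutation, adjusted p = 0.0304 and 0.0198) and rho of -0.85 and r of -0.83 for Slc29a1 (exact permutation, adjusted p = 0.0304 and 0.0234). These were the 3 of 15 member pairs that passed by rho, adjusted over the 15 pairs. Control replicates 1 and 5 had the highest Ada (30.02 and 33.8 CPM), the highest Slc29a1 (164.3 and 163.9 CPM), the 2 lowest values of Entpd1 (26.7 and 28.1 CPM) and, with 10.0 and 10.7%, the highest ribosomal protein shares of the control group.

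These relations rested in part on control replicates 1 and 5. Without both, rho was 0.82 for Ada and Slc29a1, -0.75 for Entpd1 and Ada and -0.68 for Entpd1 and Slc29a1. Each pair was also taken without the 2 tumors farthest from the median of its first measure, Ada or Entpd1, so that the tumors left out differed. In this way Ada and Slc29a1 had rho of 0.82 and r of 0.85 (exact permutation, unadjusted p = 0.0341 for rho). For Entpd1 the values were rho of -0.75 and r of -0.71 with Ada (exact permutation, unadjusted p = 0.0663 for rho) and rho of -0.68 and r of -0.72 with Slc29a1 (exact permutation, unadjusted p = 0.110 for rho). After adjustment over the 15 pairs, 0 passed by rho with 7 tumors. Leaving out control replicate 1, 3, 4, 5 or 7 on its own also left 0 pairs past the threshold. The ribosomal protein share itself was related to Ada (rho 0.70, r 0.88) and Slc29a1 (rho 0.63, r 0.92) in control tumors, and passed by r (exact permutation, adjusted p = 0.0106 and 0.0153) but not by rho (exact permutation, adjusted p = 0.152 for both). Without control replicates 1 and 5 its rho was 0.36 with Ada and 0.25 with Slc29a1.

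In the cryoablation group the tumors fell into 3 that stood apart and 5 others. A correlation over all 8 would rest on the distance between these clusters, and each cluster is too small for a correlation of its own, so that values are given instead. Replicate 5 had the highest Ada (52.3 CPM) and Slc29a1 (250.8 CPM) and the lowest Nt5e (10.7 CPM). Replicate 2 came next for Ada (37.5 CPM) and Nt5e (14.5 CPM), and had 186.3 CPM of Slc29a1. Replicate 4 had 24.5 CPM of Ada, 203.5 CPM of Slc29a1 and 18.8 CPM of Nt5e. High Ada and Slc29a1 therefore went with low Nt5e in the same 3 tumors, while Entpd1 in them, at 33.0, 23.3 and 39.8 CPM for replicates 2, 4 and 5, overlapped with the 25.2 to 47.8 CPM of the others.

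**Figure D4:**
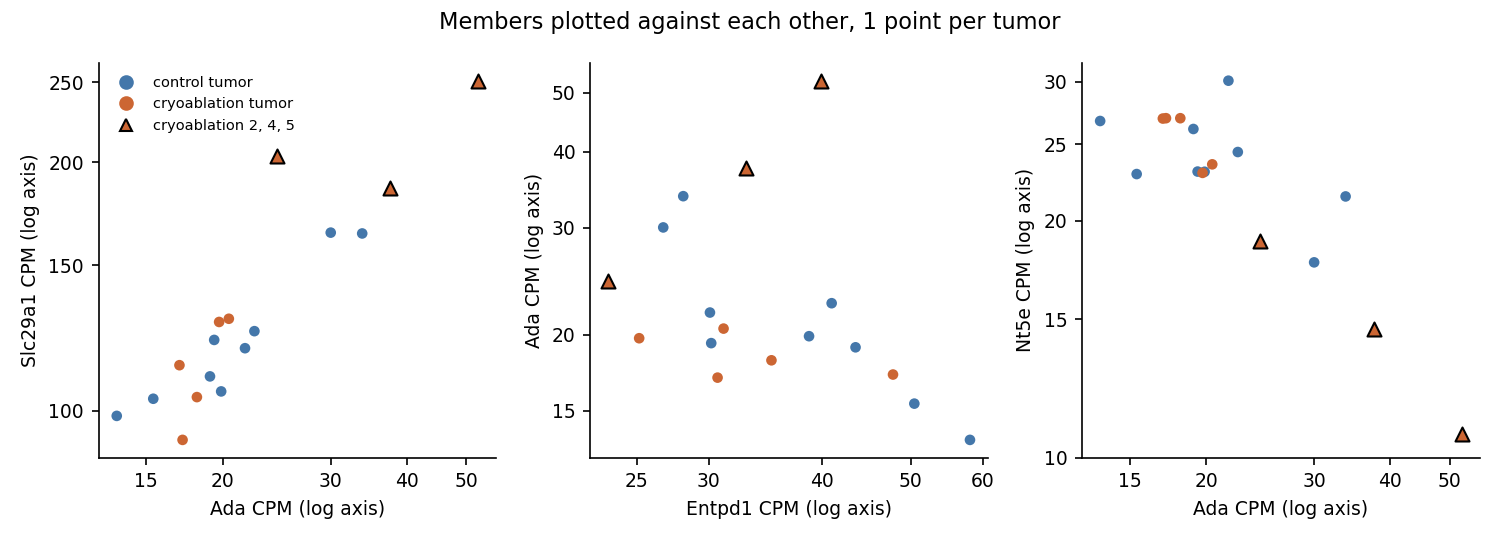
Slc29a1 against Ada, Ada against Entpd1 and Nt5e against Ada, in CPM on log axes, with 1 point per tumor, control tumors in blue, cryoablation tumors in orange and cryoablation replicates 2, 4 and 5 as triangles. Replicate 5 lies at the highest Ada, 52.3 CPM, with the highest Slc29a1 and the lowest Nt5e.

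Against the marker lists, 2 of 66 pairs of a list and a member passed by rho among the control tumors, adjusted over the 66 pairs, and 7 of 66 by r. Entpd1, known as CD39 on regulatory and exhausted T cells, myeloid cells and endothelium, followed the T cell markers (rho 0.92, r 0.89, exact permutation, adjusted p = 0.0433 and 0.0189). It also followed the endothelial markers by r (0.95, exact permutation, adjusted p = 0.0189) but not by rho (0.85, exact permutation, adjusted p = 0.0802). Slc29a1 ran against the T cell markers (rho -0.93, r -0.86, exact permutation, adjusted p = 0.0433 and 0.0383), and Ada did so by r (-0.87, exact permutation, adjusted p = 0.0386) but not by rho (-0.82, exact permutation, adjusted p = 0.118). Among the receptors, Adora2a passed by r with the fibroblast markers (0.91, exact permutation, adjusted p = 0.0189) and the neutrophil markers (0.87, exact permutation, adjusted p = 0.0304), and Adora2b with the macrophage markers (0.90, exact permutation, adjusted p = 0.0476). By rho these 3 pairs missed the threshold, at 0.85, 0.75 and 0.67 (exact permutation, adjusted p = 0.0802, 0.187 and 0.229). Over the 8 cryoablation tumors, which fell into the clusters described above, 0 of 66 pairs passed by rho. The rho of T cell markers was above 0 there with Slc29a1 and Ada, unlike in control tumors, and with Entpd1, as in control tumors.

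The Entpd1 and Slc29a1 relations to T cell markers kept their size without the 2 farthest tumors, with r of 0.93 for Entpd1 (rho 0.86, exact permutation, unadjusted p = 0.0238) and of -0.93 for Slc29a1 (rho -0.89, exact permutation, unadjusted p = 0.0123). The receptor relations became smaller, with r of 0.71 for Adora2a and fibroblast markers, 0.62 for Adora2a and neutrophil markers and 0.26 for Adora2b and macrophage markers. Adjusted over the 66 pairs, 0 passed by rho with 7 tumors. The 2 left out were those farthest from the median score of each list, so that they need not be the same tumors throughout. Leaving out control replicate 1, 2, 3, 4, 5, 6 or 9 on its own gave 0 passing pairs, leaving out replicate 7 gave 3 and leaving out replicate 8 gave 4.

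The genes whose pattern was most like each member were sought among the 10446 genes with a mean of at least 100 counts, over all 17 tumors after removal of the group means. Nt5e was most like Pawr (rho 0.95) and Pigw (0.92), and Entpd1 most like Ablim1 (0.88) and Rufy3 (0.88). For Adora2a, Mmp3, a stromal matrix protease, is named (0.84). Adora2b was most like Tnfaip8 (0.89) and Ppp1r15a (0.83), the latter a stress response gene. Ada was most like Anxa3 (0.97) and Nup37 (0.96), and Slc29a1 most like Dgcr6 (0.97) and Shf (0.97). These values are descriptions over tumors that include the 3 that stood apart, and they carry no test.

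Beyond the members, 41 other genes of adenosine and ATP handling were read from the same fit, of which 35 passed the filter. At an adjusted p under 0.05, at an unadjusted p under 0.05 and at the threshold of the study, 0 of the 35 passed, beside 0%, 4.91% and 0.492% of all genes tested. Estimates were above 0 for 12 genes and below 0 for 23, with a median log2 fold change of -0.08 beside -0.01 over all genes tested. The 7 genes of ATP release and the cell surface nucleotidases had a median of -0.11, the 9 of breakdown and salvage -0.0012, the 3 nucleoside transporters -0.03, the 9 other purine receptors -0.12 and the 7 of the cAMP response -0.17.

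The smallest edgeR p values on the low side belonged to Pde4b, Dpp4 and Ampd3. Pde4b, a phosphodiesterase that degrades cAMP, was at 11.7, 22.7 and 35.3 CPM in control and 8.10, 13.8 and 25.8 CPM in cryoablation tumors, below the control median in 7 of 8 tumors (log2 fold change -0.47, SE 0.24, edgeR adjusted p = 0.728, exact permutation p = 0.0766). Dpp4, or CD26, which binds adenosine deaminase at the cell surface, had a log2 fold change of -0.83 (SE 0.45, edgeR adjusted p = 0.728, exact permutation p = 0.175) and lay below the control median in 7 of 8. Ampd3, an AMP deaminase, had -0.68 (SE 0.38, edgeR adjusted p = 0.728, exact permutation p = 0.110). None of the 3 passed the test in the fit of all tumors. At an unadjusted p under 0.05, Pde4b passed in 8, Dpp4 in 4 and Ampd3 in 3 of the 27 alternatives run. Of the genes named below for the high side, only Pnp did so, in 1. Without cryoablation replicates 2, 4 and 5 the estimates were -0.22 for Pde4b, -0.88 for Dpp4 and -0.35 for Ampd3.

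On the high side were Pnp, Nr4a2 and Nt5c. Pnp, which acts on the inosine that Ada makes, was at 10.9, 14.8 and 24.5 CPM in control and 10.2, 16.4 and 40.2 CPM in cryoablation tumors (log2 fold change 0.47, SE 0.27, edgeR adjusted p = 0.728, exact permutation p = 0.280). Nr4a2, a cAMP-responsive transcription factor, had 0.25 (SE 0.16, edgeR adjusted p = 0.728, exact permutation p = 0.176), and Nt5c, a nucleotidase inside the cell, 0.45 (SE 0.29, edgeR adjusted p = 0.728, exact permutation p = 0.324). Without cryoablation replicates 2, 4 and 5, Pnp turned to -0.24 and Nt5c to -0.24, as Ada and Slc29a1 had done, and Nr4a2 went to 0.029. Adora3, the remaining adenosine receptor, was at 0.173 to 3.56 CPM in control and 0.341 to 2.22 CPM in cryoablation tumors (log2 fold change -0.01, SE 0.44, edgeR adjusted p = 0.997).

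**Figure D5:**
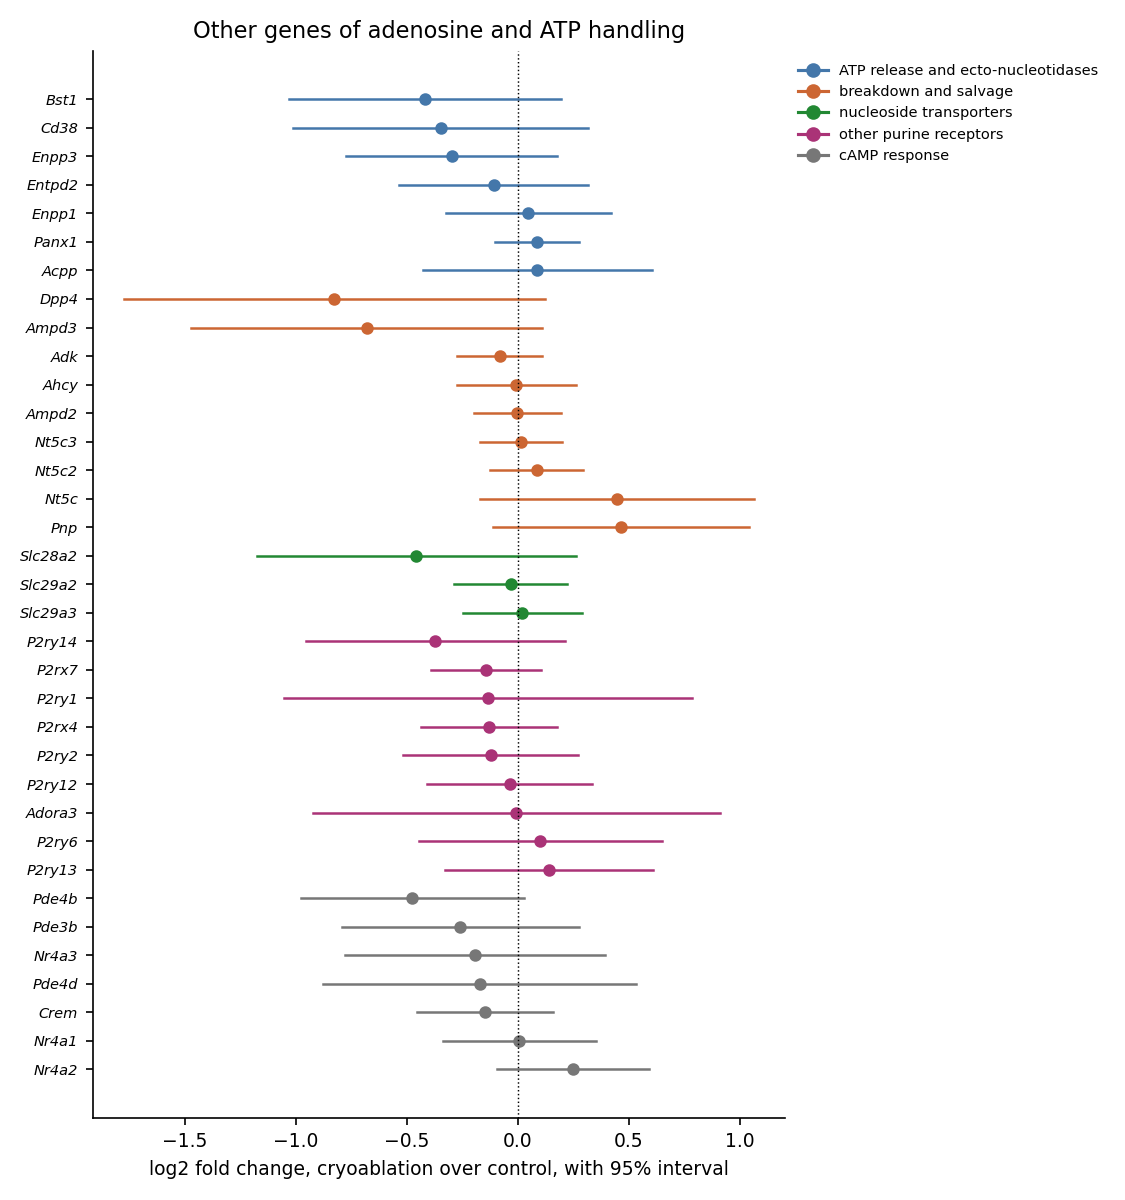
Log2 fold change of cryoablation over control with 95% intervals from edgeR for the 35 other adenosine and ATP genes that passed the filter, coloured by role. All intervals span 0, and estimates run from -0.83 for Dpp4 to 0.47 for Pnp.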

How the data were processed

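The 7 members and the gene lists were chosen with earlier results of these data known, and the members were taken by gene name from the deposited table. Groups came from the sample labels, which covered every data column. The authors deposited a count of reads for each of 21931 genes in 9 control and 8 cryoablation tumors, not normalized. The authors also deposited FPKM, which equal the counts divided by listed length and total count and were not used further. mRNA was captured with beads and sequenced on a NovaSeq instrument. The aligner, counter and strandedness are not given in the sources used here. The submitters' processing notes list GRCm38 and mm10, yet listed gene positions equal those of GENCODE M21 in only 512 cases among 21827 shared genes. The table's build therefore stays unnamed and its positions are not printed. No 2 tumors had the same counts.

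Differences were tested with edgeR 4.0.16 in R 4.3.3 (TMM, filterByExpr by group, quasi-likelihood F test) with Benjamini-Hochberg adjustment over the 13005 genes tested. The SE is the log2 fold change over the square root of F. Single genes were also compared by exact permutation over all 24310 splits of log2 CPM (prior count 2), whose smallest p is 4.11e-05. With no statement that the tumors were separate mice of separate batches, p values measure the spread between these tumors. Marker scores are mean log2 CPM of the listed genes that passed the filter. Named pathway genes are the 3 with the smallest p in each direction among those with a mean of at least 10 counts, and Adora3 was named as the remaining adenosine receptor after its values were seen. The 2 genes most like each member were named, apart from 1 gene for Adora2a that is not reported here. Promoter motifs were counted on both strands. The alternatives were upper-quartile normalization, DESeq2 1.42.0, limma 3.58.1 voom with quality weights, no filter, a replicate block, a minimum mean of 10 counts, gene length offsets, leaving out each tumor or cryoablation replicates 2, 4 and 5, a prior count of 0.5 and GENCODE lengths. After the data were seen, a term for the ribosomal protein share, a fit of tumors numbered 1 to 8 without a block, and correlations with the ribosomal protein share or without control replicates 1 and 5, and marker scores without cryoablation replicates 2, 4 and 5 were added. Scripts were tested on simulated data.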

Additional observations from a re-analysis of the deposited data

Results flagged for a closer look

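In groups of 8 or 9 tumors, a tumor was singled out where its gap to the nearest other tumor was large for the range of its group by Dixon's ratio. Among the 14 sets of a member in a group, 3 such values were found. The rule gives about 1 flag in 20 by chance only for normally distributed values, and it was applied to CPM without a log scale. The number of flags can therefore not be set against chance. Adora2a in control replicate 4 was at 11.5 CPM, beside 4.77 CPM in the next control tumor. Adora2b in the same tumor was at 16.4 CPM, beside 12.03 CPM in the next. Adora1 in cryoablation replicate 4 was at 0.469 CPM, from 6 counts, beside 0.218 CPM in the next tumor.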

How the results depend on the processing

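At an adjusted p under 0.05, 0 members and 0 of the other pathway genes were called in any of the alternatives run, and 0 members at the threshold of the study. At that threshold 1 other pathway gene was called by limma voom (Dpp4), 1 without a filter on low counts (Entpd8) and 0 to 1 on leaving out each tumor (1, Dpp4, without cryoablation replicate 3). Without cryoablation replicates 2, 4 and 5 the log2 fold change turned to 0.082 for Nt5e, -0.23 for Ada, -0.13 for Slc29a1, -0.24 for Pnp and -0.24 for Nt5c. With the ribosomal protein share as a term it turned to 0.0062 for Nt5e, -0.13 for Ada, -0.038 for Slc29a1, -0.064 for Pnp and -0.10 for Nt5c, and with voom to -0.0053 for Ada. Leaving out each tumor gave -0.46 to 0.034 for Adora2a, above 0 only without control replicate 4. The cause of these turns was not tested.

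Of 8 correlations of same-numbered tumors, 4 were over 0.1 (range -0.51 to 0.64). This count does not settle whether the replicate numbers pair the tumors, and the labels do not say. With the replicate block, 0 members were called and the log2 fold changes were -0.17 for Nt5e, -0.24 for Entpd1, -0.23 for Adora2a, -0.15 for Adora2b, 0.19 for Ada and 0.22 for Slc29a1. Over all genes the study's threshold gave 33 calls with the block and 55 without it on the same tumors.

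By rho, 0 of 15 member pairs and 0 of 66 marker pairs passed without the 2 farthest control tumors, which were chosen for each pair. Leaving out each control tumor gave 0 to 3 member pairs and 0 to 4 marker pairs. Depth limits Adora1, and 17 tumors limit the others, whose intervals held changes of at least 0.41 on the log2 scale in one direction.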
